A study of Mus musculus with 2 samples.

Results

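The genes described here encode the nuclear part of the oxidative phosphorylation machinery in mouse cardiac myofibroblasts, and their expression was compared between cells with and without knockdown of *Vgll3*. Members were taken by gene symbol alone. A gene entered if its symbol began with *Nduf* followed by a, b, c, s or v and a number, with *Uqcr*, with *Cox4* to *Cox8* or with *Atp5*, or was *Sdha*, *Sdhb*, *Sdhc*, *Sdhd*, *Cyc1* or *Cycs*. *Ndufa4l2* and symbols marked as pseudogenes were left out. This gave 85 of the 24532 genes in the count table, with 35 in complex I, 4 in complex II, 9 in complex III, 19 in complex IV, 17 under ATP synthase names and cytochrome c as the remaining 1.

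Both libraries came from cardiac myofibroblasts of C57BL/6 mice (C57BL/6J in the study's methods), isolated 3 days after myocardial infarction. The study obtained them from the infarcted heart of adult male mice as the CD45-negative fraction of a magnetic sort and grew them as adherent cells in serum-containing medium. One culture condition, siCtrl, received 12.5 nM of the control siRNA (siControl), and the other, si*Vgll3*, received 12.5 nM of an siRNA against *Vgll3*, a transcriptional cofactor that the study linked to fibrosis. Lipofectamine RNAiMAX was the carrier in both, and RNA was taken after 72 h. The labels do not say how many mice went into a culture. Each condition has 1 library, so no difference below has a replicate check and no test of the conditions was possible.

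Oxidative phosphorylation takes place in the inner mitochondrial membrane. Complex I takes electrons from NADH and complex II takes them from succinate, ubiquinone passes them to complex III, cytochrome c carries them to complex IV, and complex IV gives them to oxygen. Complexes I, III and IV pump protons, and complex V, the ATP synthase, uses the returning protons to make ATP. Most subunits are made from nuclear genes, and several subunits of complex IV have separate isoform genes for heart and skeletal muscle. The subunits encoded by mitochondrial DNA were not analysed here.

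The targeted gene was lower in the knockdown library. *Vgll3* was at 202 TPM (a level corrected for gene length and library size) in siCtrl and at 84.0 TPM in si*Vgll3*, which left 41.6% of the control level. The libraries held 140815237 and 125789276 reads on genes. Changes are given as M, the log2 of the si*Vgll3* TPM over the siCtrl TPM, so that a positive M is higher in si*Vgll3*. Mean level is given as A, the log2 of the mean TPM, and genes with A above 0, 11754 in all, were used for counts. The interval in brackets after an M is the 95% Clopper-Pearson interval of the count ratio, placed on the TPM ratio. It covers counting error between these libraries only. All 10 myofibroblast markers examined were detected, with a summed level of 23732 TPM in siCtrl and of 19931 TPM in si*Vgll3*, and they did not share a direction. M was below −0.5 for *Postn* (−1.22), *Col1a1* (−0.90), *Col3a1* (−0.86) and *Col1a2* (−0.53), and above 0 for the other 6, up to 0.52 for *Tagln* and 0.72 for *Thy1*.

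The respiratory chain and ATP synthase transcripts were abundant, and their summed TPM was nearly equal in both libraries. The 85 members added up to 21272 TPM in siCtrl and to 21404 TPM with the knockdown, which was 2.13% and 2.14% of the TPM of all genes. Summed by complex, the level went from 5329 to 5309 TPM for complex I, from 732 to 723 TPM for complex II, from 2344 to 2309 TPM for complex III, from 5608 to 5633 TPM for complex IV and from 7188 to 7340 TPM for complex V. Cytochrome c, a single gene and not a sum over several, was at 71.8 TPM in siCtrl and at 90.2 TPM in si*Vgll3*. Measured instead as a share of the reads on genes, the members held 0.874% in siCtrl and 0.918% in si*Vgll3*. The shares of complexes I, II and III were then higher in si*Vgll3*, at 0.191% and 0.197%, 0.0529% and 0.0545%, and 0.0956% and 0.0967%. The direction of these sums thus depends on the measure. Of the members, 74 were above 50 TPM in siCtrl and 75 had over 2000 reads in both libraries, so that counting error was small for most of them.

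**Figure D1:**
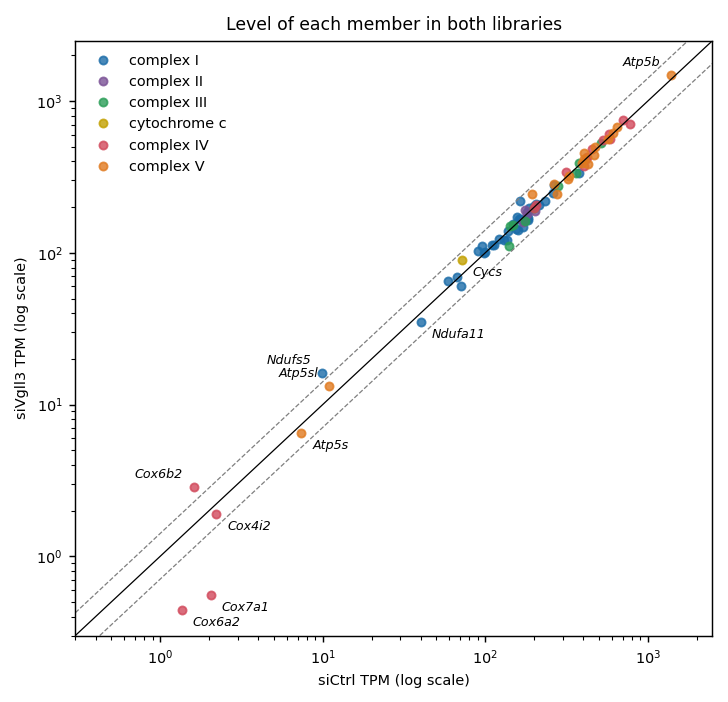
Level of each member in TPM in siCtrl (x axis) and si*Vgll3* (y axis), both on log scales, coloured by complex. The solid line marks equal levels and the dashed lines an M of 0.5 and −0.5. Points above 50 TPM lie between the dashed lines, and the points outside them, *Cox7a1*, *Cox6a2*, *Cox6b2* and *Ndufs5*, are among the 7 detected members under 20 TPM.

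Of the 85 members, 81 had A above 0 and were counted. *Cox6a2* had reads but an A of −0.15, and *Cox7b2*, *Cox8b* and *Cox8c* had 0 reads in both libraries, which allows up to 3 reads in each. The median M of the 81 members was 0.01, with an interval of the median over genes from −0.02 to 0.04, while the median over all genes was −0.05. This interval treats the members as independent of each other. It describes their spread in this pair of libraries, not the spread between cultures, and is no test of a difference from all genes. M was above 0 for 44 of the 81 members, or 54.3%, against 43.0% of all genes. That split depends on the scaling. With read counts scaled by library total (CPM) or by TMM factors, 52 of 78 members (66.7%) were above 0, against 50.7% and 49.5% of all genes, whose median moved by 0.05 and 0.04. The median of the members was above that of all genes by 0.06 with TPM and with each of these scalings. Among genes with A above 5 the gap was smaller, with medians from TPM of 0.014 for 75 members and −0.006 for all 4387 genes. M was above 0 for 54.7% of the former and 49.1% of the latter. The median of complex III, −0.01 from TPM, was 0.04 from CPM and 0.03 with TMM or DESeq2 factors. Other negative values of M within 0.05 of 0 can change sign in the same way, since these scalings raised most values.

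The members were spread more narrowly than genes at large. M lay within 0.25 of 0 for 73 of the 81 members (90.1%), against 59.9% of all genes. The range between the 25th and 75th percentiles of M was 0.17 for members and 0.39 for all genes. Some other large complexes were spread about as narrowly. Of 76 cytosolic ribosomal proteins 94.7%, and of 38 proteasome subunits 86.8%, lay within 0.25 of 0, with ranges of 0.12 and 0.18. Mitochondrial ribosomal proteins were spread more widely, with 83.3% of 78 within 0.25 of 0 and a range of 0.23. Most members are highly expressed, and among genes with A above 5 the share within 0.25 of 0 was 94.7% for 75 members and 70.9% for all 4387 genes. These are descriptions of a pair of libraries, with no test.

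**Figure D2:**
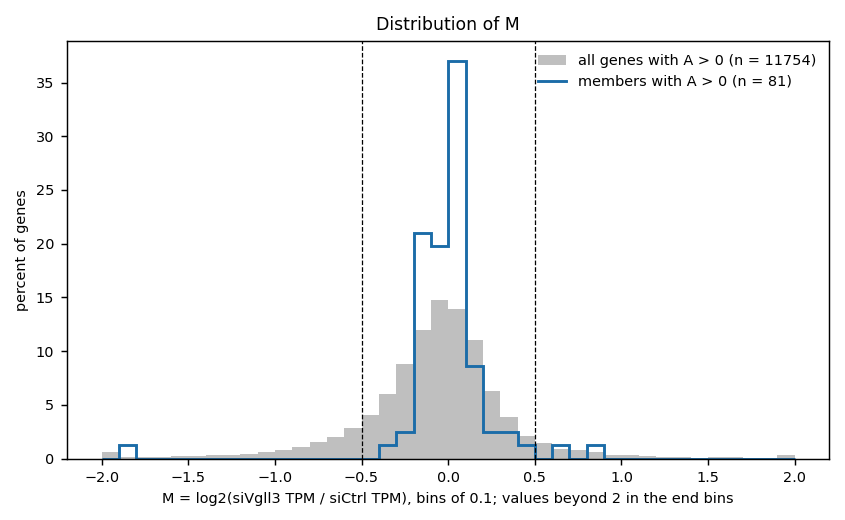
Distribution of M over the 81 members (blue line) and all 11754 genes with A above 0 (grey), as percent of genes in bins of 0.1, with dashed lines at −0.5 and 0.5. The members form a narrow peak around 0, with *Cox7a1* far to the left and *Ndufs5* and *Cox6b2* to the right.

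Past the threshold of 0.5 that the study used for lower genes, 1 member was lower, *Cox7a1*, against 11.4% of all genes. With the sign reversed, 2 members were higher, *Cox6b2* and *Ndufs5*, against 5.73% of all genes. All 3 are among the weakly expressed members and are described with their complexes. Genes with A above 5 passed the threshold less often, with 284 lower and 142 higher of all 4387 genes, and 0 of the 75 members passed it either way. The counting interval lay wholly above 0 for 28 members (34.6%), against 32.4% of all genes, and wholly below 0 for 27 members (33.3%), against 45.8% of all genes. At this depth small differences between the libraries exceed counting error for most abundant genes, and without replicates they cannot be told apart from the spread between cultures.

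**Figure D3:**
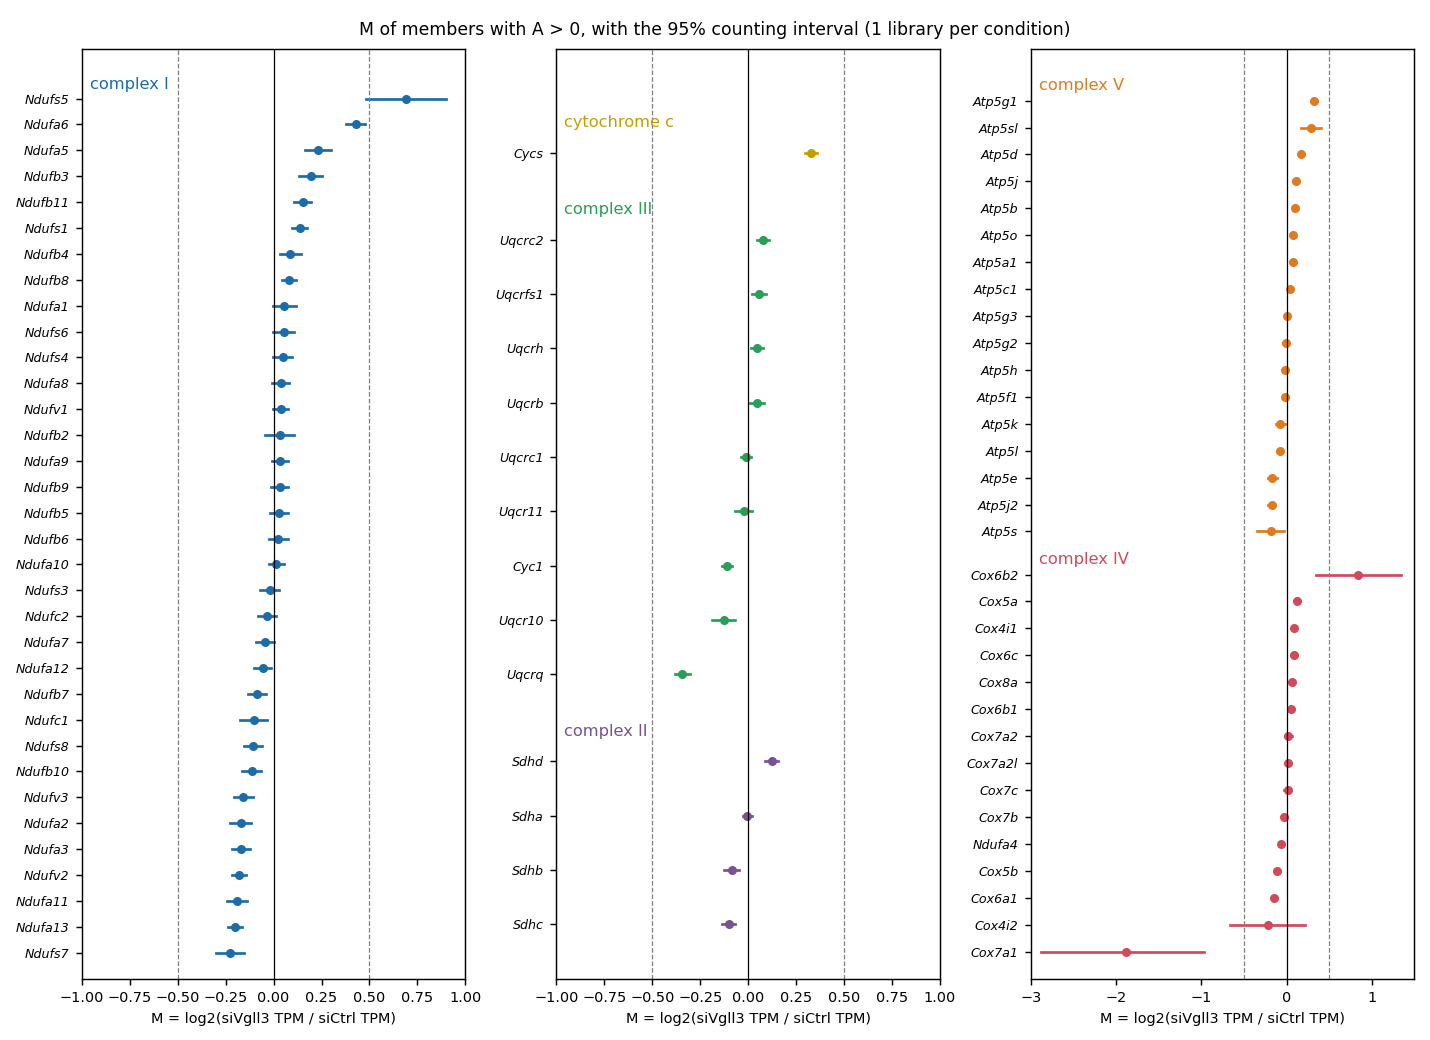
M of 80 of the 81 members with A above 0 (points) with the 95% counting interval (bars), grouped by complex, with dashed lines at −0.5 and 0.5. The x axis of the right panel is wider than the others. Most points lie within 0.25 of 0, and the widest intervals belong to *Cox7a1*, *Cox6b2*, *Cox4i2* and *Ndufs5*.

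Complex I, the NADH dehydrogenase, had 20 of 35 members (57.1%) above 0 and a median M of 0.03. The share above 0 was 43.0% over all genes and 49.1% over all genes with A above 5. Each count above 0 given below is to be read beside these shares. Its 7 core subunits hold the flavin and iron-sulphur clusters that pass electrons to ubiquinone. *Ndufv1*, which binds NADH, was at 97.9 TPM in siCtrl and at 100.4 TPM in si*Vgll3*. Its partner *Ndufv2* went from 137 to 121 TPM, with an M of −0.18 [−0.22, −0.15]. *Ndufs1*, the largest subunit of that module, went from 59.2 to 65.0 TPM, with an M of 0.14 [0.10, 0.18], and its exons overlap those of *Eef1b2* on the other strand. The members of a single electron-input module thus had M of either sign. *Ndufs3*, on the ubiquinone side, had an M of −0.02. *Ndufs8* had an M of −0.11 and *Ndufs7*, which holds the last cluster before ubiquinone, was the lowest of the complex, at 71.1 TPM in siCtrl and at 60.7 TPM in si*Vgll3* with an M of −0.23 [−0.30, −0.16]. Over the core, 3 of 7 members (42.9%) were above 0, near the share of all genes.

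The 28 accessory subunits of complex I, which surround the core and are needed for its assembly and stability, ranged in siCtrl from 9.93 to 378 TPM, and 17 of them were above 0. The most abundant were *Ndufa3*, which went from 378 to 335 TPM, *Ndufb8*, which went from 266 to 282 TPM, and *Ndufa12*, which had levels of 260 and 250 TPM. *Ndufa6* (chr15:82350139-82354291, GRCm38.p6) stood out among the abundant members, at 164 TPM in siCtrl and at 221 TPM in si*Vgll3*. Its M of 0.43 [0.38, 0.48] was the highest of the 75 members with A above 5. *Ndufa5*, at 94.9 and 111 TPM, was the next of the accessory subunits with A above 5, with an M of 0.23. On the low side were *Ndufa13* with an M of −0.20 and *Ndufa11* with an M of −0.19.

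*Ndufs5* (chr4:123712710-123718186), another accessory subunit, had the highest M of complex I, but its level is uncertain. It was listed at 9.93 TPM (323 reads) in siCtrl and at 16.03 TPM (482 reads) in si*Vgll3*, with an M of 0.69 [0.48, 0.90]. These levels are the lowest of the complex by far. *BC002163*, a copy of the gene whose annotated transcript matches it at 95% identity or more over at least 200 bases, has its own row in the count table with 6499 and 6334 reads (210 and 221 TPM). Of the reads on this pair of genes, *Ndufs5* held 4.73% in siCtrl (exact binomial 95% interval 4.24 to 5.27%) and 7.07% in si*Vgll3* (6.47 to 7.71%). Summed, the pair was at 220.2 TPM in siCtrl and at 237.5 TPM in si*Vgll3*, with an M of 0.11 [0.06, 0.16]. With the pair summed, 1 member in place of 2 was above 0.5. How the reads were divided between the copies was not tested.

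Complex II, the succinate dehydrogenase, has 4 subunits, all from nuclear genes, and it links the citrate cycle to the chain. *Sdha*, the flavoprotein that oxidises succinate, was at 181 TPM in both libraries, with an M of −0.004 [−0.03, 0.02]. *Sdhb*, its iron-sulphur partner, went from 171 to 161 TPM, with an M of −0.09. The membrane anchors differed in sign, as *Sdhc* went from 203 to 189 TPM with an M of −0.10 and *Sdhd* went from 176 to 192 TPM with an M of 0.12. The siCtrl levels of the 4 genes, all between 171 and 203 TPM, were the most even of the complexes with several members.

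Complex III, the cytochrome bc1 complex, had 4 of 9 members (44.4%) above 0, near the 43.0% of all genes, and a median M of −0.01. Of its catalytic subunits made from nuclear genes, *Cyc1*, cytochrome c1, went from 361 to 335 TPM with an M of −0.11, and *Uqcrfs1*, the Rieske iron-sulphur protein, went from 148 to 154 TPM with an M of 0.06. The accessory subunits *Uqcrh*, at 516 and 533 TPM, and *Uqcrb*, at 379 and 391 TPM, were the most abundant of the complex. *Uqcrq* (chr11:53427922-53430831), a small accessory subunit, was lower, at 140.2 TPM (13582 reads) in siCtrl and at 110.5 TPM (9922 reads) in si*Vgll3*. Its M of −0.34 [−0.38, −0.31] was the lowest of the members with A above 5. The highest of the complex was *Uqcrc2*, with an M of 0.08.

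*Cycs* (chr6:50562563-50566569), the mobile cytochrome c that carries electrons from complex III to complex IV and also acts in apoptosis, had 14022 siCtrl reads and 16299 si*Vgll3* reads. Its M was 0.33 [0.30, 0.36]. Its level of 71.8 TPM in siCtrl was below that of every member of complexes II and III.

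Complex IV, cytochrome c oxidase, reduces oxygen to water. Of its 19 members, 15 had A above 0, with 9 above 0 in M and a median of 0.01. The most abundant were *Cox6a1*, which went from 779 to 706 TPM with an M of −0.14, *Cox4i1*, which went from 703 to 748 TPM with an M of 0.09, and *Ndufa4*, which went from 588 to 564 TPM with an M of −0.06. *Ndufa4* carries a complex I name but is a subunit of complex IV. *Cox5a*, at 314 and 341 TPM, had an M of 0.12 and *Cox5b*, at 404 and 374 TPM, had an M of −0.11. *Cox7a2l*, a factor that joins complexes III and IV, was at 425 and 429 TPM.

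The isoform genes of complex IV separated into common forms at 197 TPM or more and other forms below 3 TPM. *Cox4i1*, *Cox6a1*, *Cox6b1* and *Cox7a2* made up at least 99.0% of the TPM of their isoform sets in either library, and *Cox7b* and *Cox8a* made up 100% of theirs. The heart and muscle form *Cox8b* and the testis forms *Cox7b2* and *Cox8c* had 0 reads. *Cox4i2*, a form of subunit 4 known from lung, had 103 siCtrl reads and 82 si*Vgll3* reads, and the interval of its M, −0.66 to 0.21, contained 0.

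Both detected heart and muscle forms were lower in si*Vgll3*. *Cox7a1* (chr7:30184171-30186030) had 48 reads (2.04 TPM) in siCtrl and 13 reads (0.555 TPM) in si*Vgll3*, with an M of −1.88 [−2.89, −0.97]. *Cox6a2* (chr7:128205435-128206366) had 58 reads (1.36 TPM) and 18 reads (0.441 TPM), with an M of −1.63 [−2.48, −0.84]. The shares of these forms in their isoform sets were small in both libraries, at 0.988% and 0.267% for *Cox7a1* and 0.174% and 0.0625% for *Cox6a2*. The exons of *Cox6a2* overlap those of *Itgad* on the other strand, and whether strand was used in the counting is not given in the sources used here.

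Cardiomyocyte markers were examined beside these genes. Of 12 markers, *Tnnt2* alone had A above 0, at 60.05 TPM in siCtrl and at 10.4 TPM in si*Vgll3* with an M of −2.53. The myosin, actin and calcium-handling markers *Myh6*, *Myh7*, *Actc1*, *Pln* and *Ryr2* had 0 reads in both libraries. *Tnni3* and *Mb* had 0 reads in siCtrl and 10 and 2 reads in si*Vgll3*, and so went the other way, and 11 of the 12 markers had 0 reads in siCtrl. The summed level of the list, 60.05 and 10.4 TPM, was thus that of *Tnnt2*. The part of other cells in the lower *Cox7a1* and *Cox6a2* was not tested. In RNA from a whole culture, fewer cells of a type and less RNA per cell cannot be told apart.

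*Cox6b2* (chr7:4751792-4753094), the testis form of subunit 6b, was the highest of all members in M. It had 57 reads (1.603 TPM) in siCtrl and 92 reads (2.87 TPM) in si*Vgll3*, with an M of 0.84 [0.35, 1.34]. Its share of the subunit 6b set was 0.301% and 0.516%. The interval of *Cox6b2* reaches below 0.5, and so does that of *Ndufs5*, so with the whole interval asked to pass the threshold 0 members were higher and *Cox7a1* remained lower.

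**Figure D4:**
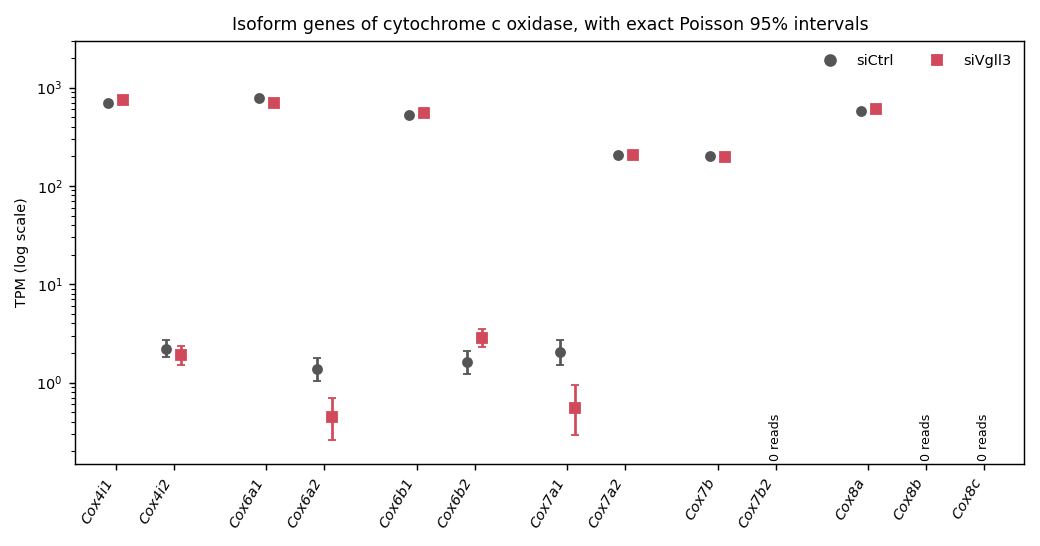
Level in TPM (log scale) of the isoform genes of complex IV in siCtrl (grey circles) and si*Vgll3* (red squares), with exact Poisson 95% intervals of the reads, which cover counting error only. Common isoforms lie between 197 and 779 TPM, the other detected isoforms lie below 3 TPM, and genes with 0 reads in both libraries are marked.

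Complex V, the ATP synthase, held the most abundant member. *Atp5b*, the catalytic beta subunit of the F1 head, was at 1391 TPM in siCtrl and at 1488 TPM in si*Vgll3*, with an M of 0.10. *Atp5a1*, the alpha subunit, went from 645 to 677 TPM with an M of 0.07. Of the 5 genes of the head and central stalk, 4 were above 0 in M, up to 0.17 for *Atp5d*, and *Atp5e* was at −0.17. Their summed level went from 3121 to 3282 TPM. The 3 membrane subunits *Atp5j2*, *Atp5l* and *Atp5k* were below 0, with M of −0.18, −0.08 and −0.07 and a summed level of 1219 TPM in siCtrl and of 1129 TPM in si*Vgll3*. The 4 genes of the peripheral stalk, which holds the head in place, lay between −0.02 for *Atp5f1* and 0.10 for *Atp5j*. From CPM the M of *Atp5f1* was −0.11, with 37823 reads in siCtrl and 31283 reads in si*Vgll3*, so its value depends on the measure. *Atp5j* overlaps exons of *Gabpa* on the other strand.

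The proton-carrying c ring is made from 3 genes that encode the same mature protein. *Atp5g1* (chr11:96072793-96075694) went from 195 to 244 TPM, with an M of 0.32 [0.28, 0.36]. *Atp5g2*, at 393 and 390.4 TPM, and *Atp5g3*, at 610.2 and 613 TPM, had M of −0.01 and 0.01. The share of *Atp5g1* in the TPM of the c ring genes was therefore 16.3% in siCtrl and 19.6% in si*Vgll3*, and the sum of the genes went from 1199 to 1247 TPM.

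*Atp5s* and *Atp5sl* were taken in by the rule through their symbols and are not subunits of the enzyme. *Atp5s* was at 7.39 and 6.496 TPM, with an M of −0.19, and *Atp5sl* was at 10.9 and 13.3 TPM, with an M of 0.29. The other 79 members with A above 0 had a median M of 0.01 as well. Subunits named outside the rule include *Ndufab1*, the acyl carrier subunit of complex I, with an M of 0.18. *Usmg5*, a membrane subunit of ATP synthase, had an M of 0.11. *Atpif1*, an inhibitor of ATP synthase and not a subunit, had an M of −0.10. *Ndufa4l2*, a hypoxia-induced relative of *Ndufa4* that the rule leaves out, was at 12.7 TPM in siCtrl and at 5.75 TPM in si*Vgll3*, with an M of −1.14 [−1.33, −0.95].

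Several members share sequence or genomic position with other genes. In the GENCODE annotation of the mouse genome, 22 members had at least 1 copy elsewhere, 41 copies in all, and most copies were pseudogenes. *Cycs* had 4 such copies, *Atp5l* had 9, and *Atp5g1* had 1, so their values are uncertain to the extent that reads were shared. A further check found 28 members whose exons overlap those of another annotated gene, in most cases on the other strand. Over the members with neither, 41 with A above 0, the median M was −0.03, 17 of 41 (41.5%) were above 0, near the 43.0% of all genes, and 87.8% lay within 0.25 of 0, against 59.9% of all genes. The median was then 0.01 above that of all genes, in place of 0.06. Genes with copies or overlaps were left out of the members only, and all genes remained unfiltered. *Ndufa6*, *Uqcrq*, *Cox7a1* and *Cox6b2* had no copy or overlap of this kind.

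Promoters were read because nuclear respiratory genes are known targets of the factors NRF1, GABP (an ETS factor) and YY1. A RefSeq promoter, 250 bases before to 50 bases after the start site on GRCm38.p6, was matched for 68 of the 81 members. The core letters of the NRF1 motif, GCATGCGC or its reverse complement GCGCATGC, were present in 11 members (16.2%) and in 6.23% of 9363 genes with A above 0. The YY1 letters AAGATGGC or GCCATCTT were in 11 members (16.2%) and 5.46% of genes, and the ETS letters CCGGAAGT or ACTTCCGG were in 5 members (7.35%) and 9.68% of genes. A match is a description of letters and not a bound site. The windows below show the NRF1 letters in capitals, 5′ to 3′ on the strand of the gene, for members picked after their values were seen to cover both signs of M, and each ends before the start site.
Ndufa6, chr15:82354356-82354385, minus strand: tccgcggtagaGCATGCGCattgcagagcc
Cycs, chr6:50566611-50566640, minus strand: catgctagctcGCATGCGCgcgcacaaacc
Atp5g2, chr15:102671069-102671098, minus strand: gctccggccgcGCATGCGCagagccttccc
Sdhb, chr4:140961206-140961235, plus strand: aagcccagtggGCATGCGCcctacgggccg
Cox6a1, chr5:115349100-115349129, minus strand: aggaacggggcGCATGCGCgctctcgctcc
Ndufa11, chr17:56717693-56717722, plus strand: ctgcactgcgcGCATGCGCgcacgccttgt

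These promoters hold the same core letters 46 to 152 bases before the start site, apart from *Atp5g2* at 32 bases. Their M were 0.43 for *Ndufa6*, 0.33 for *Cycs*, −0.01 for *Atp5g2*, −0.09 for *Sdhb*, −0.14 for *Cox6a1* and −0.19 for *Ndufa11*, a spread that the choice of these members fixes. The median M was −0.02 over the 11 members with the NRF1 letters and 0.02 over the 57 without. Over all genes with a promoter the order was the other way, at −0.02 with these letters and −0.05 without. For the YY1 letters the medians of the members were 0.03 with and 0.01 without, and those of all genes were both −0.04. In *Cox6a1*, *Atp5g2* and *Ndufa11* the letters on both strands overlap, as the motif is nearly its own reverse complement.

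Regulators of these genes were examined from a list of 18. The 13 with A above 0 had a median M of −0.02, and 0 of them passed 0.5 in either direction. *Nrf1* went from 19.997 to 18.7 TPM with an M of −0.10, *Gabpa* from 31.5 to 28.0 TPM with an M of −0.17 and *Yy1* from 63.0 to 66.0 TPM with an M of 0.07. The mitochondrial transcription factor *Tfam* had an M of 0.19, *Tfb2m* had 0.19 and *Tfb1m* had −0.29. The remaining regulators ran from −0.37 for *Gabpb2* to 0.16 for *Gabpb1*, with *Ppard* at −0.25, *Twnk* at −0.12, *Pprc1* at −0.02, *Polrmt* at −0.0003 and *Esrra* at 0.12. The rest of the list was below the level used for counts. There *Esrrg* (202 siCtrl reads and 80 si*Vgll3* reads) had an M of −1.22 [−1.61, −0.84]. *Ppara* (128 and 57 reads) had −1.04 [−1.52, −0.58]. The coactivator *Ppargc1a*, at 0.473 and 0.233 TPM (197 and 90 reads), had −1.02 [−1.40, −0.65]. *Ppargc1b* went the other way with 10 and 14 reads, and *Esrrb* had 0 reads.

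Assembly factors, which insert cofactors and join subunits but do not stay in the complexes, had medians from −0.04 for the 6 of complex III to 0.17 for the 4 of complex II. Of the 14 factors of complex I, 8 were above 0 in M and *Ndufaf3* was below −0.5, at 15.6 TPM in siCtrl and at 8.83 TPM in si*Vgll3* with an M of −0.82 [−0.97, −0.67]. *Lyrm7*, which delivers the Rieske protein to complex III, was above 0.5, at 1.40 and 2.24 TPM with an M of 0.68 [0.42, 0.95]. None of the 22 factors of complex IV passed 0.5, and *Cox16* was the highest of them with an M of 0.49. All 4 factors of complex V were above 0, from 0.03 for *Tmem242* to 0.46 for *Tmem70*.

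Of 12 listed carriers and kinases that move ATP, phosphate and protons across the mitochondrial membranes, 7 had A above 0. *Slc25a4* and *Slc25a5*, which exchange ADP for ATP, were at 925 and 984 TPM and at 706 and 675 TPM, with M of 0.09 and −0.06. The phosphate carrier *Slc25a3* had an M of 0.17, and the porins *Vdac1*, *Vdac2* and *Vdac3* had M of 0.13, −0.17 and −0.02. The uncoupling protein *Ucp2* was the only one of the 7 past 0.5, at 11.1 TPM (1115 reads) in siCtrl and at 4.93 TPM (460 reads) in si*Vgll3*, with an M of −1.17 [−1.33, −1.01]. *Slc25a31* had 10 and 38 reads, and *Ucp1*, *Ucp3*, *Ckmt1* and *Ckmt2* had 0 reads.

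**Figure D5:**
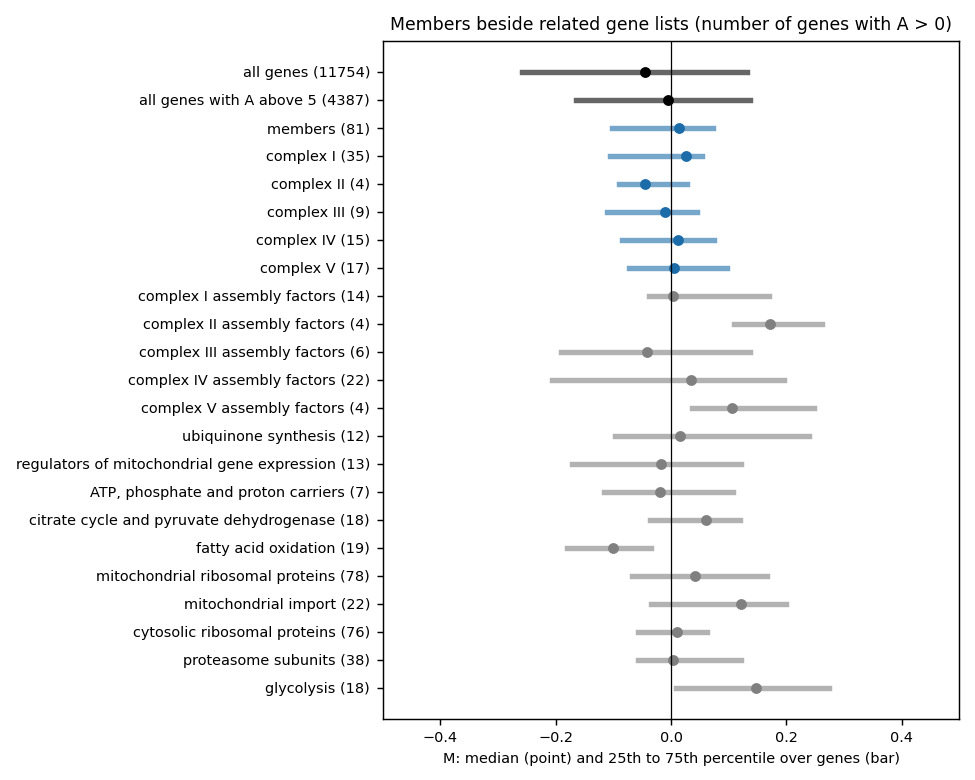
Median M (points) and 25th to 75th percentile over genes (bars) for all genes, the members, each complex and related gene lists, with the number of genes with A above 0 in brackets. The medians of the complexes lie within 0.05 of 0, fatty acid oxidation has the lowest median and complex II assembly factors the highest.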

How the data were processed

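The authors made TruSeq Stranded mRNA libraries, sequenced them on an Illumina NovaSeq instrument, and used FastQC, Trimmomatic, HISAT2 (mm10) and StringTie, whose versions and counting strand are not given in the sources used here. They deposited raw read counts per gene, not normalised, and TPM per gene, already normalised for length and depth, so M from TPM depends on the gene length assigned in each library. M and A were computed from the deposited TPM with nothing added, and intervals from the deposited counts (SciPy 1.17.1), after the interval script was tested on simulated data. DESeq2 1.42.0 and edgeR 4.0.16 served for scaling only. Near-identical copies were transcripts of another GENCODE gene with at least 200 aligned bases at 95% identity. Members, gene lists and markers were chosen with earlier results of these data known. Genes were named by a rule: per complex the 3 most abundant and the extremes in M, every member beyond 0.5, core complex I, complex II, cytochrome c, c ring and isoform genes, regulators and carriers, and the extremes of other lists. Others, such as *Ndufa5*, *Ndufa11*, *Ndufa13*, *Cox5a* and *Cox5b*, were chosen after their values were seen. So were regulators below the level used for counts and genes named for their subcomplex, copies or promoters. The values of 1 member are counted but not reported here by name.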

Additional observations from a re-analysis of the deposited data

How the results depend on the processing

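No paired analysis was possible because the conditions hold 1 library each. Under CPM, TMM and DESeq2 scaling the median M of the members was 0.068, 0.060 and 0.057, that of complex I was 0.077, 0.069 and 0.066, and in each 1 member was above 0.5 and 0 were below −0.5. These scalings give no length term and their A above 0 keeps 78 members, without *Cox7a1*, *Cox6b2* and *Cox4i2*. The lower counts past 0.5 come from that filter, since from CPM the M of *Cox7a1* was −1.72 and that of *Cox6b2* was 0.85. With M centred on all genes these medians were 0.059 and 0.071. With 0.1 TPM added, with 1 TPM added and with no filter on A, 2 members were below −0.5, as *Cox6a2* then entered, and with A above 2 it was 0, with 1 above 0.5. A threshold of 0.25 gave 6 members above and 2 below, and a threshold of 1 or the whole interval past 0.5 gave 0 above. The whole interval lay above 0 for 28 members. Among alternatives chosen after seeing the data, leaving out members that share or overlap another gene gave a median M of −0.035, 17 members above 0, 1 above 0.5 and a complex V median of −0.081, and summing *Ndufs5* with *BC002163* left 1 member above 0.5. For 38 named genes, *Vgll3* among them, 117 of 143 values of M under the rescalings and the centring left the counting interval, and 1 of 76 with TPM added did. Depth limits the isoform genes with 103 reads or fewer, and the lack of replicates limits every difference given here.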

Other observations

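Pathways that feed the respiratory chain or share its dependence on mitochondria were described in the same way. Fatty acid oxidation had the lowest median of these lists. Of its 19 genes with A above 0, 2 were above 0 in M, and the median was −0.10 against −0.05 for all genes. *Acaa2*, the thiolase of the last step, was at 57.3 TPM in siCtrl and at 39.3 TPM in si*Vgll3*, with an M of −0.55 [−0.61, −0.48], and *Hadhb*, a trifunctional protein subunit, was the highest with an M of 0.37. In the citrate cycle and pyruvate dehydrogenase list, 12 of 18 genes were above 0 with a median of 0.06, and the isocitrate dehydrogenases held both ends, with *Idh2* at −0.42 and *Idh3a* at 0.33. Ubiquinone synthesis had a median of 0.02 over 12 genes, from −0.23 for *Coq9* to 0.39 for *Coq2*.

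Glycolysis had a median of 0.15 over 18 genes, of which 14 were above 0, and its summed level went from 12034 to 13516 TPM. *Pgam1* was the highest, with an M of 0.38, and *Eno2*, the neuronal enolase, was the lowest at 1.44 and 1.01 TPM with an M of −0.52. Mitochondrial import had a median of 0.12 over 22 genes, 15 of them above 0, from −0.36 for *Timm8a1* to 0.43 for *Timm17a*. Mitochondrial ribosomal proteins had a median of 0.04 over 78 genes with 3 above 0.5, and *Mrps6* was the highest at 0.77 while *Mrpl55* was the lowest at −0.32. The large housekeeping complexes resembled the respiratory complexes in their medians, at 0.01 over 76 cytosolic ribosomal proteins (*Rpl7* at −0.26, *Rpl26* at 0.85) and 0.003 over 38 proteasome subunits (*Psmb9* at −2.02, *Psma8* at 1.16). *Psmb9* is a subunit of the immunoproteasome. Leukocyte markers summed to 14.96 TPM in siCtrl and to 8.46 TPM in si*Vgll3*, with *Ptprc* at 0 reads in both. *Lyz2* went from 10.9 to 3.13 TPM, while *Cd14* and *Csf1r* were above 0, with M of 0.62 and 0.50. Endothelial markers summed to 27.3 and 24.0 TPM, with 4 of 8 below 0. *Tek* went from 19.5 to 13.4 TPM, while *Cdh5* had an M of 0.50 and *Cldn5* had 11 siCtrl reads and 94 si*Vgll3* reads.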
